A study of Mus musculus with 2 samples.

Results

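The genes described here encode the proteins of the cytosolic ribosome. They were all rows of the count tables whose symbol starts with Rpl or Rps and goes on with a digit or with the forms p0, p1, p2 or sa, leaving out 5 pseudogene rows and the 10 Rps6k kinase genes. The rule found 86 of 32183 genes. Of these, 43 encode proteins of the large subunit, 31 of the small subunit and 3 of the P-stalk, the flexible arm of the large subunit that recruits elongation factors. A further 8 are paralogs of subunit genes by their symbols (Rpl3l, Rpl7l1, Rpl10l, Rpl22l1, Rpl36al, Rpl39l, Rps27l and Rps27rt), and Rps19bp1 encodes a nucleolar protein that binds a subunit and is no subunit itself. All 86 were annotated as protein coding in GENCODE M21 on GRCm38, on 19 chromosomes. RNA was counted in single droplets from the celiac and superior mesenteric ganglia of the mouse, the prevertebral sympathetic ganglia of the abdomen, in 2 libraries of 1 group. The ganglia were digested and triturated, and the libraries were made with the 10x 3′ chemistry. The series used 20 animals aged 7 to 8 weeks, with both sexes in equal number; the sources used here give neither strain, genotype or treatment nor which animals went into which library. P-values thus measure only how differences between cell classes vary over these 2 libraries, which may be technical. That spread was estimated over all classes of 1 joint fit, with the library as a block, and drew on all genes.

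A ribosome holds 1 copy of nearly every one of these proteins, so their genes are transcribed together and their messages are among the most abundant of a cell. Their messages begin with an oligopyrimidine tract, through which growth signals acting on the kinase mTOR and the RNA-binding protein Larp1 set how much of them is translated. The mature messages are short and lie mainly in the cytoplasm, whereas long noncoding RNAs such as Malat1 are kept in the nucleus.

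The start of these genes is shown because the members moved together in most comparisons below. Of the 86 members, 66 had at least 1 entry in a RefSeq table of promoters on GRCm38.p6. A run of at least 8 letters that are each C or T was searched on the gene's strand within 20 bases on either side of the annotated start. It stood in 31 of 78 member windows (39.7%), against 16.0% of all 32851 windows. Read on the opposite strand, the same search matched 6.41% of member windows and 17.7% of all windows. The windows printed here run from 40 bases before to 20 bases after the start, 5′ to 3′ on the gene's strand, with a run of 8 or more pyrimidines in capitals. The first 5 hold such a run, and the last 4 do not.
Rps27: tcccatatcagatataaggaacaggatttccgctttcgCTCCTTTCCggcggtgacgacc
Rps10: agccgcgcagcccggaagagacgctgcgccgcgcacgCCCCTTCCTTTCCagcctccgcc
Rps9: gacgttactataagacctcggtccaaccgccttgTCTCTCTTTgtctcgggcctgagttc
Rpl15: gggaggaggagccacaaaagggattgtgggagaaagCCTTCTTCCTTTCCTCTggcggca
Rpl22l1: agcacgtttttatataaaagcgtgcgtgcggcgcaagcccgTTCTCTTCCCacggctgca
Rplp0: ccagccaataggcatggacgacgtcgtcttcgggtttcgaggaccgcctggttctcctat
Rps16: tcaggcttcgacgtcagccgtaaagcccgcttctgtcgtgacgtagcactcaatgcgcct
Rpl7l1: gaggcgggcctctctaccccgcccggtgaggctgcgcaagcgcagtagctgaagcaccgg
Rpl36al: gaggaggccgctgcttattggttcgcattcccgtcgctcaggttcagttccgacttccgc
These windows lie at chr3:90213629-90213688 on the minus strand (Rps27), chr17:27635225-27635284 on the minus strand (Rps10), chr7:3704001-3704060 on the plus strand (Rps9), chr14:18270967-18271026 on the minus strand (Rpl15) and chr3:28805468-28805527 on the plus strand (Rpl22l1). Those without a run lie at chr5:115559427-115559486 on the plus strand (Rplp0), chr7:28350649-28350708 on the plus strand (Rps16), chr17:46782637-46782696 on the minus strand (Rpl7l1) and chr12:69184048-69184107 on the minus strand (Rpl36al). A match is a description of these letters, and an annotated start can be off by more than the 20 bases searched. For Rps16 the printed window begins at 28350649 and the gene in GENCODE at 28350652, outside the bases searched. The division into members with and without a run is uncertain to that extent.

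Library 1 held 94521010 unique molecular identifiers (UMIs, each standing for 1 captured molecule) and library 2 held 95235439, and 64 barcode sequences occurred in both. After doublets were removed, 12030 and 11655 droplets remained. Droplets were grouped without any member gene, on a random part of their UMIs, drawn with probability 0.5, and all values below come from the remaining UMIs. This gave 15 classes that entered 1 joint fit. Neuron subclusters with a median of 5000 or more UMIs are called deep neurons (145 and 138 droplets in libraries 1 and 2), leaving out those led by markers of another class. The deep subclusters left out held 79 and 54 droplets. For 2 of these subclusters, 1 marker of another class among the 10 leading genes was enough. Low-UMI subclusters led by markers of another class were not left out of their class, so the rule differed between the 2 sides. Subclusters of the neuron clusters with a lower median are called low-UMI neuronal droplets (631 and 616). Both names follow the rule. No neuron marker was among the 10 genes that set any neuron subcluster, low-UMI or deep, apart from the other neuron subclusters. Summed over 17 neuron markers, their levels were 27461 and 29436 CPM (UMIs of a gene scaled to a common total), against 28398 and 29636 in deep neurons. Single markers differed, here on the UMIs used for clustering. Dbh, which makes noradrenaline, was at 1521.6 and 1472.2 CPM in the largest low-UMI subcluster and at 449.5 and 366.8 CPM in the Rxfp1-rich deep neurons. Th, the first enzyme of that pathway, was at 599.2 and 623.6 against 278.5 and 212.3 CPM. Other subclusters lay closer together. In the low-UMI subcluster led by satellite glia markers, Dbh was at 707.7 and 765.5 CPM and Th at 346.6 and 271.1 CPM. In the Shox2-rich deep neurons, Dbh was at 668.6 and 406.0 CPM and Th at 386.9 and 243.6 CPM. Since the sums were alike, other neuron markers, not named here, went the other way. Satellite glia, which wrap the neuronal somata, fell into a Malat1-high cluster (1780 and 1696 droplets) and a Malat1-low cluster (1481 and 1393). The name of the Malat1-high cluster is less certain, since no satellite glia marker was among its 10 leading genes. Its mean scaled levels of satellite glia and non-myelinating Schwann markers among glial clusters were 0.409 and 0.107. The Malat1-low cluster had 0.823 and -0.751. In sums over many droplets, fewer cells of a type and less RNA per cell cannot be told apart.

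The members together took 8.81% of the tested UMIs of all droplets kept in library 1 and 8.52% in library 2, but the share ranged from 1.43% ± 0.13 (SD, n = 2 libraries) in deep neurons to 18.6% ± 0.350 in the dendritic class. Immune cells stood at both the top and the middle of this order: T cells had 15.9% ± 1.74, macrophages 11.2% ± 0.268 and mast cells 6.82% ± 0.277. Among stromal cells the share was 12.6% ± 0.295 in blood endothelial cells, 10.6% ± 0.510 in fibroblasts, 9.50% ± 0.407 in perineurial or epineurial cells, 9.49% ± 1.12 in lymphatic endothelial cells and 7.70% ± 0.278 in pericytes or smooth muscle cells. Low-UMI neuronal droplets, Malat1-low satellite glia, myelinating Schwann cells and non-myelinating Schwann cells lay close together, at 6.15% ± 0.0290, 6.13% ± 0.178, 5.91% ± 0.219 and 5.48% ± 0.337. The low-UMI class was mixed, which the SD over libraries does not show. Its subclusters ranged from 3.83% and 3.51% to 8.12% and 8.46% in libraries 1 and 2. The deep neuron subclusters left out for markers of another class had 4.87% and 5.17%, so the low share of deep neurons holds without them. Malat1-high satellite glia had 2.13% ± 0.0925. Of the neighbours in this order, lymphatic endothelial and perineurial or epineurial cells, Malat1-low satellite glia and low-UMI neuronal droplets, and myelinating Schwann cells and Malat1-low satellite glia differed by less than the larger SD of the pair. The dendritic class was mixed, with markers of several kinds of dendritic and monocyte-like cells.

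**Figure D1:**
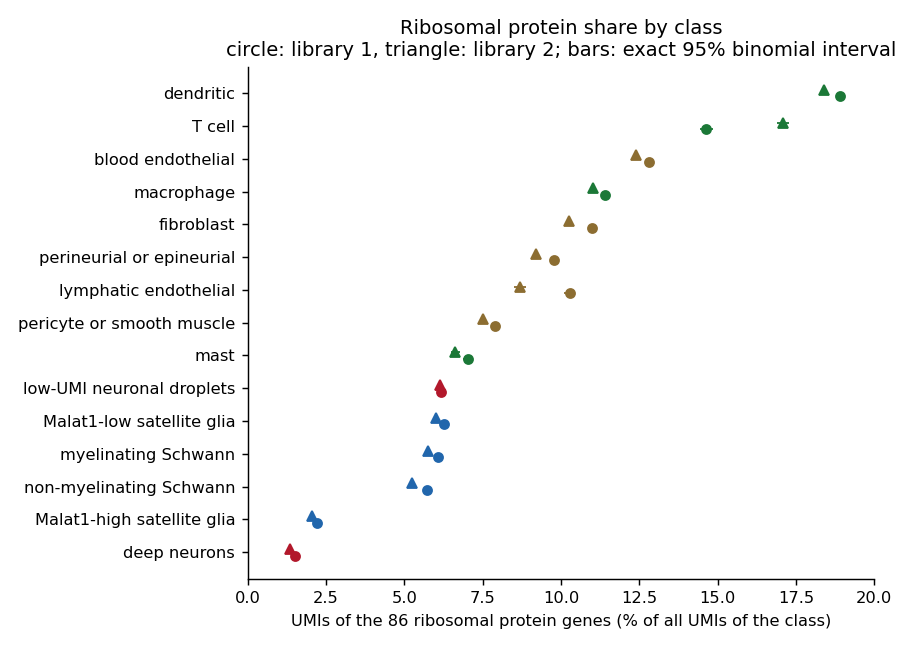
The horizontal axis gives the UMIs of the 86 genes as a percentage of all tested UMIs of each of 15 classes, with 1 point a library and exact 95% binomial intervals, which cover counting error only (red neuronal, blue glial, green immune, brown stromal classes). Deep neurons and Malat1-high satellite glia lie lowest, at 1.33 to 1.52% and 2.06 to 2.20%, and the dendritic class highest, at 18.4 to 18.9%.

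Droplets of 1 class varied as well. In macrophages of library 1 the share ran from 4.95% at the tenth percentile of droplets to 17.6% at the ninetieth. The corresponding range in deep neurons was 0.511% to 3.31%, and in Malat1-low satellite glia 4.14% to 8.60%. Shares were also taken within ranges of droplet depth. The count tables began at 1501 UMIs a droplet, so the range of 1000 to 2000 UMIs holds none below that. Malat1-low satellite glia with 4000 to 8000 UMIs had 6.67% and 6.99% in the 2 libraries, while Malat1-high satellite glia at the same depth had 1.91% and 1.72%. At 2000 to 4000 UMIs, low-UMI neuronal droplets had 6.52% and 6.39%, and Malat1-high glia had 2.53% and 2.64%. Within Malat1-high glia the share itself differed with depth, from 3.55% and 3.49% at 1000 to 2000 UMIs to the values at 4000 to 8000. It was higher again at 8000 to 16000 UMIs, at 2.61% and 2.16% (73 and 78 droplets). The ranges that gave a share ended at 8000 UMIs for low-UMI neuronal droplets and began at 8000 UMIs for deep neurons. These 2 classes, defined by depth, thus had no range in common, and depth and class cannot be told apart between them. The part of depth in the difference between the other classes was not tested.

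Malat1, the nuclear RNA by whose level the glial clusters were named, made up 11.6% of UMIs in Malat1-high satellite glia, 7.61% in deep neurons, 6.39% in Malat1-low satellite glia and 0.836% in low-UMI neuronal droplets. Over the 15 classes, the member share and the Malat1 share had a Pearson correlation of -0.692 in library 1 and -0.691 in library 2, as a description of classes that share a library and whose percentages share a total. The relation was not particular to Malat1. With the share of mitochondrially encoded genes the correlation was -0.659 and -0.582, and with the median UMIs a droplet it was -0.03 and -0.02. With Malat1 and mitochondrially encoded genes taken out of the total, the glial ratio changed from 2.85-fold to 2.63-fold in library 1 and from 2.91-fold to 2.69-fold in library 2. The part of Malat1 or of mitochondrially encoded genes in the member shares was not tested.

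**Figure D2:**
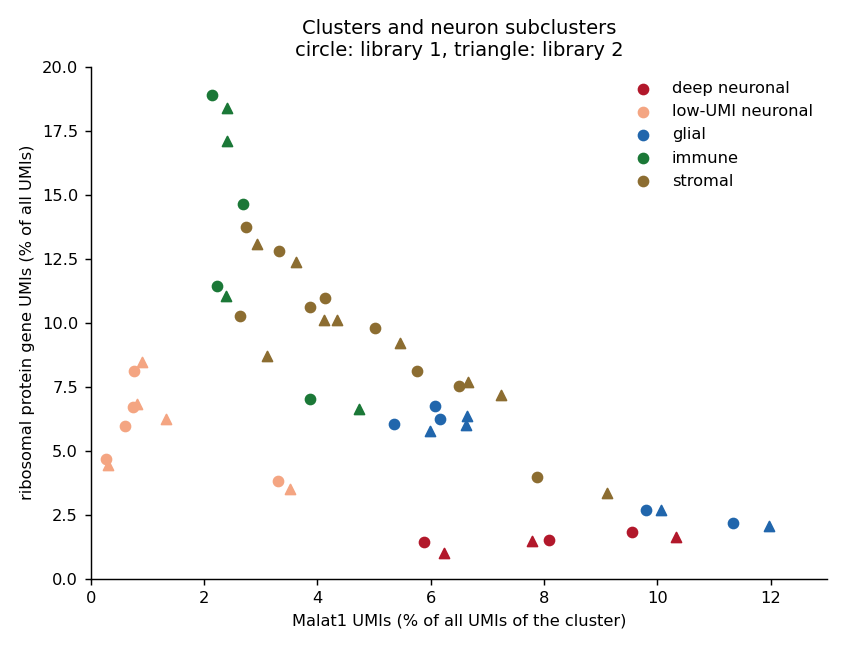
Each point is a cluster or neuron subcluster in 1 library, with its Malat1 share on the horizontal axis and the share of the 86 genes on the vertical axis, both in % of UMIs; deep subclusters led by markers of other cells are not drawn. Glial, stromal and immune clusters run from high to low member share as Malat1 rises, deep neuronal subclusters lie below them, and low-UMI neuronal subclusters lie apart at low Malat1.

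The same split appeared inside 2 other lineages. Non-myelinating Schwann cells, the glia that surround unmyelinated axons, consisted of a cluster with 6.75% and 6.37% of member UMIs at 6.07% and 6.65% Malat1, and a cluster with 2.68% and 2.68% at 9.80% and 10.1% Malat1. One fibroblast cluster with 7.87% and 9.10% Malat1 had 3.98% and 3.34% of member UMIs, with a median over droplets of 2.42% and 2.22%, whereas the other 3 fibroblast clusters lay between 10.1% and 13.7%.

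In low-UMI neuronal droplets against deep neurons, every one of the 83 members tested rose. The median log2 fold change was 2.17, over a range from 1.23 to 3.02, and the member share was 4.07-fold higher in library 1 and 4.60-fold higher in library 2. In this comparison 26.2% of the 16554 genes tested were called higher and 27.0% lower by edgeR's quasi-likelihood test at an adjusted p of 0.05, and the median over all genes was -0.01. Rpl3l, Rpl39l and Rpl10l, with 8, 19 and 0 UMIs in all, did not pass the filter on low counts.

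By role, the large-subunit genes had a median log2 fold change of 2.06, the small-subunit genes 2.26 and the P-stalk genes 2.25. Rps10, a protein of the small-subunit head, stood at 795 and 858 CPM in low-UMI droplets of libraries 1 and 2 and at 141 and 130 CPM in deep neurons. Its log2 fold change was 2.62 (SE 0.12, edgeR adjusted p = 2.9e-68), and the groups did not overlap. Rpl36 changed by 2.61 (SE 0.13), Rpl27 by 2.55 (SE 0.13) and Rps9 by 2.53 (SE 0.12). Rps27a, whose product is made as a fusion with ubiquitin, changed by 2.44 (SE 0.11), and Rpsa, also known as a laminin receptor, by 1.90 (SE 0.11). At the other end, Rpl22 had 262 and 247 CPM against 94.2 and 78.6 CPM, a log2 fold change of 1.57 (SE 0.16), the smallest among subunit genes. Rpl37, Rpl23a, Rps20 and Rpl24 lay between 1.67 and 1.70. Rpl7l1, thought to act in ribosome assembly, had the smallest fitted change, with 23.8 and 39.4 CPM against 16.7 and 10.2 CPM, and 1.23 on the log2 scale (SE 0.33, edgeR adjusted p = 5.4e-04). Its log2 ratio was 0.48 in library 1 and 1.86 in library 2, so this size and rank rested on library 1. Levels of every one of the 83 members were higher in both low-UMI sums than in both sums of deep neurons. How many of all genes tested separated in this way is not given here, so this count has no background beside it.

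Other genes of translation were counted from lists chosen for this tissue. All 9 elongation factors rose, with a median of 1.86. Eef1a1, which brings aminoacyl-tRNA to the ribosome, had 1505 and 1485 CPM against 369 and 270 CPM. Of 37 initiation factors 31 rose and 1 fell, with a median of 1.67. The one that fell was Eif4g3, a scaffold of the cap-binding complex, at -0.83 (SE 0.14, edgeR adjusted p = 3.3e-08). Fau and Rack1, ribosomal proteins under other symbols, rose by 2.30 and 2.01. Of 18 other messages known for an oligopyrimidine start, some of them also named above, 17 rose, led by Nme2 at 2.82. Of the 78 mitochondrial ribosomal proteins, which build a different ribosome and are encoded in the nucleus, 72 rose and none fell, with a median of 1.86. Among 35 ribosome biogenesis genes 14 rose and 1 fell, with a median of 0.40, and among 20 genes of growth signalling to translation 5 rose and 7 fell. Of 11 nuclear retained RNAs, 10 fell and 1 rose, with a median of -3.11; the one that rose, Gm42418, overlaps ribosomal RNA sequence.

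Markers of other cells moved with this comparison. The summed level of 10 satellite glia markers was 5795 and 5631 CPM in low-UMI droplets and 697 and 607 CPM in deep neurons, with all 10 detected in both. The 10 fibroblast markers summed to 1484 and 1115 CPM against 203 and 173 CPM. Their part in the result was not tested. With the low-UMI subclusters led by markers of other cells left out, the count was still 83. With all deep subclusters included, 83 members were called and the median was 1.27.

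In Malat1-high against Malat1-low satellite glia, all 83 members fell, by a median of 1.73 on the log2 scale, where 20.8% of all genes tested were called lower and 23.8% higher, and the median over all genes was 0.15. Malat1 itself named the clusters and is no result. Member shares were 2.85-fold and 2.91-fold lower in the Malat1-high cluster in libraries 1 and 2. Rplp0, the core protein of the P-stalk on chr5:115559467-115563727, had 224 and 217 CPM in Malat1-high glia and 1026 and 983 CPM in Malat1-low glia, and it had the largest fall, -2.41 (SE 0.08, edgeR adjusted p = 4.4e-105). Rplp1 and Rplp2, the acidic proteins that bind to it, changed by -1.79 (SE 0.08) and -1.81 (SE 0.08). The small-subunit genes Rps15a, Rps16, Rps10 and Rps27 changed by -2.10, -2.08, -2.06 and -2.04.

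The paralogs Rpl7l1 and Rpl22l1 fell least. Rpl7l1 had 32.7 and 33.4 CPM against 45.5 and 46.0 CPM, a log2 fold change of -0.69 (SE 0.12). Rpl22l1 had 178 and 146 CPM against 257 and 218 CPM, a log2 fold change of -0.77 (SE 0.08), while its parent Rpl22 changed by -1.97 (SE 0.08). Rps19bp1 changed by -1.11 (SE 0.13) and Rpl36al by -1.16 (SE 0.08). Among subunit genes Rpl6 fell least, at -1.28 (SE 0.08). The 83 members lay lower in both Malat1-high sums than in both Malat1-low sums, again without a matching count over all genes tested.

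Of the mitochondrial ribosomal protein genes, 71 of 78 fell and none rose, with a median of -0.92. Initiation factors fell in 32 of 37, with a median of -0.68, and elongation factors in 6 of 9. Eef1d fell by 2.10 on the log2 scale, and Eef1a2, the form of the elongation factor typical of neurons and muscle, rose by 0.66. All 18 other oligopyrimidine messages fell, led by Tpt1 at -2.25, and so did Fau and Rack1. Among the nuclear retained RNAs, 9 of 11 rose and none fell, with Malat1 among the 9. Satellite glia markers summed to 18517 and 17862 CPM in the Malat1-high cluster and to 43558 and 42305 CPM in the Malat1-low cluster, and neuron markers to 4861 and 4766 CPM against 2178 and 2254 CPM. Their part was not tested.

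**Figure D3:**
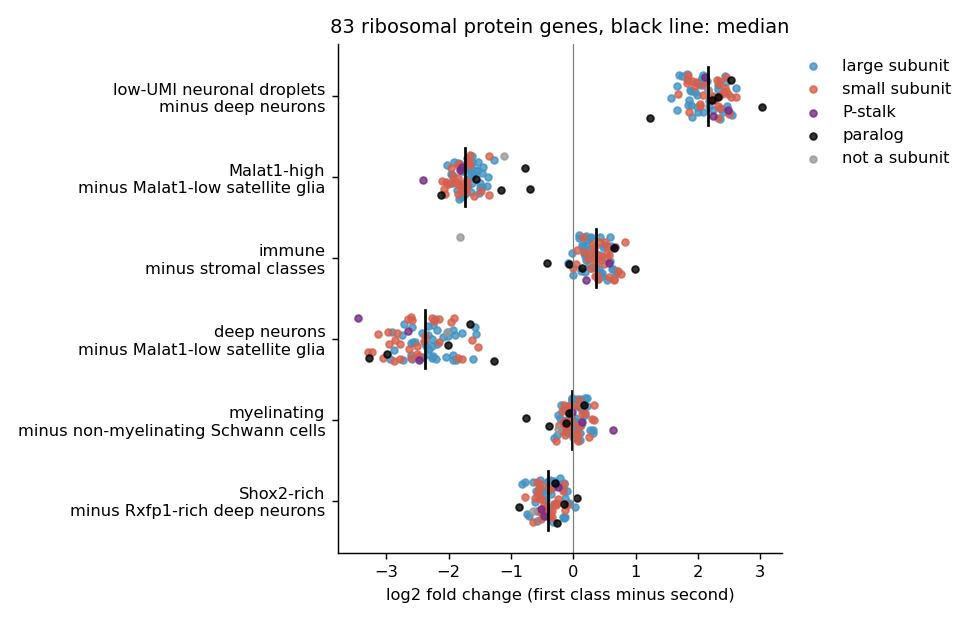
Each point is the log2 fold change of 1 of the 83 members tested (horizontal axis) in 1 of 6 comparisons, coloured by role, with a black line at the median and vertical scatter for legibility only. All 83 points lie above 0 in low-UMI droplets against deep neurons, and all 83 lie below 0 in Malat1-high against Malat1-low glia and in deep neurons against Malat1-low glia.

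Deep neurons against Malat1-low satellite glia compared neurons with the glia that wrap them. All 83 members were lower in the neurons, by a median of 2.38 on the log2 scale, where 33.7% of all genes were called lower and 34.1% higher. The member share was 4.12-fold and 4.50-fold lower in libraries 1 and 2. Rplp0 again had the largest difference, with 123 and 95.5 CPM against 1026 and 983 CPM and -3.45 on the log2 scale (SE 0.11). Rps10 changed by -3.30, Rps27 by -3.22 and Rps15a by -3.14, and Rps27l, a paralog known as a target of p53, by -2.99. The smallest difference was that of Rpl22l1, with 125 and 112 CPM against 257 and 218 CPM and -1.27 (SE 0.10), and small differences were also those of Rpl31 at -1.56, Rpl6 at -1.58 and Rpl24 at -1.60. In this comparison 70 of 78 mitochondrial ribosomal proteins fell and 1 rose, and 9 of the 11 nuclear retained RNAs rose and 1 fell. This comparison shares deep neurons with the first and Malat1-low glia with the second, so the 3 sets of values are not independent. Low-UMI neuronal droplets had a member share of 6.17% and 6.13%, beside 6.25% and 6.0% in Malat1-low satellite glia.

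For immune against stromal classes, the mean of macrophages, dendritic cells, mast cells and T cells was set against the mean of fibroblasts, perineurial or epineurial cells, pericytes or smooth muscle cells, and both kinds of endothelial cells. Of the 83 members tested, 67 were higher in immune classes and 1, Rpl22l1, was lower, where 12.4% of all genes were called higher and 17.8% lower. The median member change was 0.36 and that of all genes was -0.24. Rps9 had 2136 and 2209 CPM against 1290 and 1224 CPM, a log2 fold change of 0.83 (SE 0.06, edgeR adjusted p = 1.4e-39). Rps29, among the smallest proteins of the ribosome, had 4668 and 4820 CPM against 2770 and 2888 CPM, and changed by 0.77 (SE 0.05). Rps13 rose by 0.71 (SE 0.06), Rpl38 by 0.69 (SE 0.05) and Rpl37a by 0.68 (SE 0.05). Of the P-stalk genes, Rplp1 rose by 0.68 (SE 0.05) and Rplp2 by 0.57 (SE 0.06), and Rplp0 by 0.21 (SE 0.07, edgeR adjusted p = 0.008), a call that was lost with library totals alone (adjusted p = 0.154), with totals without Malat1 and mitochondrially encoded genes (0.418) and at a clustering resolution of 0.6 (0.216).

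Rpl22l1 had 351 and 351 CPM in immune classes and 555 and 472 CPM in stromal classes, with a log2 fold change of -0.41 (SE 0.08, edgeR adjusted p = 1.6e-06). Rpl22, its parent, which binds RNA and is known for its part in lymphocyte development, had 1073 and 1022 CPM against 755 and 673 CPM and rose by 0.59 (SE 0.07). For both genes these means over classes did not overlap between the groups, and the genes differed in direction. Single classes did overlap. On the log2 scale, relative to the median subunit gene of the same class, Rpl22l1 was at -0.99 in mast cells and -2.35 in blood endothelial cells. Rpl22 was at -0.84 in T cells and -0.66 in blood endothelial cells. Rpl36al rose by 0.65 (SE 0.09). Rpl7 had 983 and 987 CPM against 1103 and 1003 CPM and did not pass the test. Rps19bp1, with 0 UMIs in mast cells, had a fitted value that depends on the prior count and is not given. Of the 78 mitochondrial ribosomal protein genes 2 rose and 12 fell, with a median of -0.16. Elongation factors rose in 1 of 9 and fell in 1, initiation factors rose in 5 of 37 and fell in 3, while Fau and Rack1 rose, Fau by 1.05. The immune classes were uneven: the share was 18.6% in the dendritic class and 6.82% in mast cells, below the stromal mean of 10.3% and 9.61% in libraries 1 and 2.

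Myelinating Schwann cells, which form the myelin of the larger axons, were set against non-myelinating Schwann cells. Of the 83 members tested, 6 were higher and none was lower, where 6.80% of all genes tested were called higher and 9.45% lower. The part of members called higher was close to that of all genes, so the count of 6 does not set the members apart. The median member change was -0.02 and that of all genes -0.11, while the member share was 1.06-fold and 1.10-fold higher in the myelinating cells of libraries 1 and 2. The sign of the median turned under several scalings, with 0.08 for library totals alone. Rplp0 had 1217 and 1187 CPM against 740 and 715 CPM, a log2 fold change of 0.63 (SE 0.09, edgeR adjusted p = 1.2e-09). Also called were Rps16 at 0.34, Rps15 at 0.33, Rpl3 at 0.32 and Rpl23a at 0.31, with adjusted p-values of edgeR between 0.0053 and 0.038. Without the library as a block, 1 member was called higher. Rpl7l1 had 31.5 and 24.8 CPM against 44.0 and 44.5 CPM and did not pass (adjusted p = 0.068). With the Malat1-rich cluster of non-myelinating cells left out, an alternative chosen after seeing the data, 1 member was higher, 47 were lower and the median was -0.31. That 1 was Rplp0, which passed the test in every alternative run that gives a test.

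Shox2-rich and Rxfp1-rich deep neurons are the populations that the study names, after a transcription factor and a relaxin receptor. Both genes were kept out of the clustering. The Rxfp1-rich class had 74 and 66 droplets and the Shox2-rich class 49 and 52. In the Shox2-rich class 7 members were lower and none higher, where 4.19% of the 16521 genes tested were called lower and 3.09% higher. The median member change was -0.40 and that of all genes -0.01, with 81 of 83 members below 0. Rpl10a had 122 and 73.5 CPM against 162 and 135 CPM, and fell by 0.72 on the log2 scale (SE 0.22, edgeR adjusted p = 0.020). Also called were Rpl14, Rps2, Rpl24 and Rplp1, between -0.51 and -0.60. The member share was 1.42% against 1.5% in library 1 and 1.01% against 1.48% in library 2. The median over droplets was 1.32% in Shox2-rich against 0.961% in Rxfp1-rich neurons in library 1, the opposite direction, and 0.939% against 0.989% in library 2. In the summed values the size of the difference rested mainly on library 2: the median member change was -0.11 in library 1 and -0.53 in library 2, and 48 of 83 members had the same sign in both. Malat1 was at 5.88% and 6.23% of UMIs in the Shox2-rich class and 8.09% and 7.78% in the Rxfp1-rich class, so here the member share and Malat1 were both lower in the same class. Between 1 and 31 members were called lower over the alternatives, with 3 called without the library as a block.

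The composition of the member pool also differed between classes. Large-subunit genes gave 54.6% of member UMIs in deep neurons, 53.1% in low-UMI neuronal droplets and 52.8% in Malat1-high satellite glia, against 48.2% in macrophages and T cells. Small-subunit genes showed the reverse, with 39.2% in deep neurons and 45.7% in macrophages. P-stalk genes ranged from 4.31% in deep neurons to 6.96% in mast cells. Because a UMI of a 3′ library stands for 1 molecule, these shares need no scaling by length, although copies of a gene elsewhere in the genome can take some of its reads.

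Relative to the median subunit gene of the same class, members varied to different degrees over the 15 classes. Rps19bp1, with 0 UMIs in mast cells, had the largest SD, 1.57 and 1.53 on the log2 scale in libraries 1 and 2. Members named in this paragraph were chosen after their values were seen. Rps27a varied least, with an SD over 15 classes of 0.10 and 0.09 on the log2 scale in libraries 1 and 2. Rpl22l1 had SDs of 0.81 and 0.83 and Rps27l of 0.71 and 0.69. Rplp0 stood highest in myelinating Schwann cells, 0.73 above the median subunit gene, and was low in deep neurons, 0.55 below it, and in mast cells, 0.54 below it. Rps29 stood 2.22 above the median subunit gene in macrophages, where it reached 6259 ± 52.7 CPM, and 0.98 to 1.65 above it in the other 14 classes. Rplp1 stood 2.09 above it in mast cells and 0.88 to 1.52 above it elsewhere. Rpl31, which lies beside the exit tunnel, stood 0.41 below it in deep neurons and 2.08 below it in T cells.

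**Figure D4:**
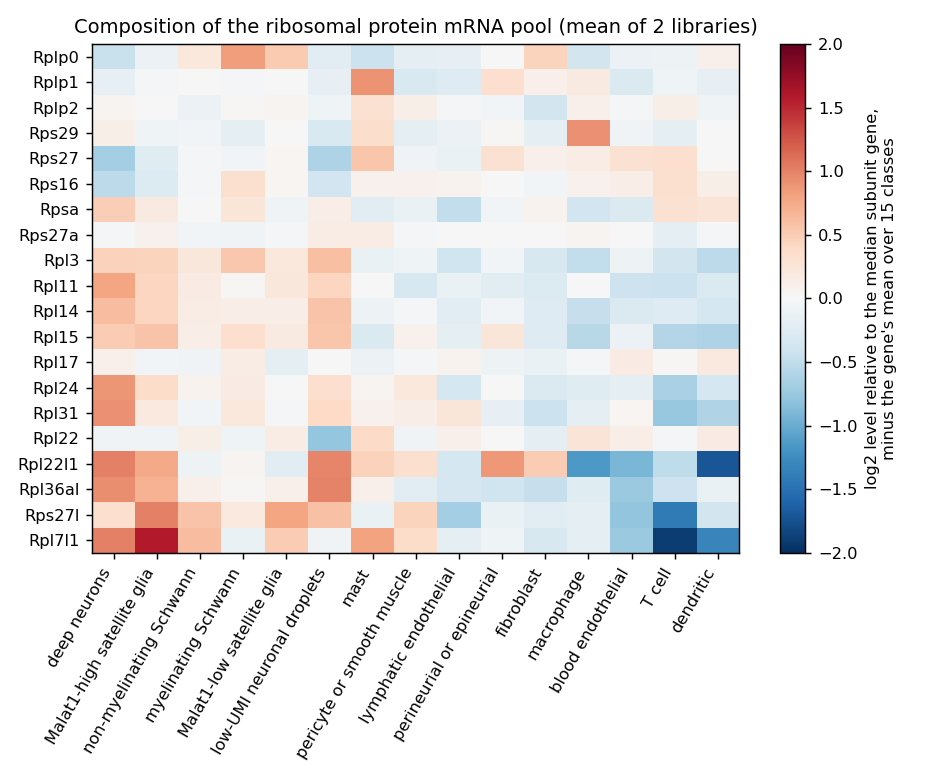
Rows are 20 members and columns the 15 classes in order of member share; colour gives the log2 level relative to the median subunit gene of the class, minus the gene's mean over classes, as a mean of 2 libraries. Of the rows drawn, the paralogs in the bottom 4 vary most, Rplp0 is highest in myelinating Schwann cells and Rps29 in macrophages.

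Counting a paralog per 100 UMIs of its parent removes the total from the comparison. Rpl22l1 (chr3:28805436-28807424) had 213 and 217 UMIs per 100 of Rpl22 (chr4:152325742-152334071) in low-UMI neuronal droplets, and 132 and 142 in deep neurons. Perineurial or epineurial cells had 119 and 115, Malat1-high satellite glia 118 and 111, and fibroblasts 109 and 97.5. The ratio was 70.7 and 71.5 in myelinating Schwann cells, 56.5 and 52.9 in non-myelinating Schwann cells and 51.2 and 48.2 in Malat1-low satellite glia. It was lowest in the dendritic class, at 18.5 and 16.6, in macrophages, at 25.2 and 23.2, and in blood endothelial cells, at 31.6 and 30.3. The order was nearly the same in both libraries. In low-UMI neuronal droplets this came with a Rpl22 level 1.57 below the median subunit gene on the log2 scale, the lowest of the 15 classes, next to 0.88 below it in deep neurons. These ratios describe the classes, and their differences were not tested.

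Rps27l per 100 UMIs of Rps27 had a different order of classes, with 26 and 28.4 in low-UMI neuronal droplets, 22.1 and 25.1 in deep neurons, 27.4 and 28.3 in Malat1-high glia and 22.2 and 17.8 in Malat1-low glia. Pericytes or smooth muscle cells had 18.3 and 15.9, above myelinating Schwann cells with 13.5 and 14.4. T cells had 3.72 and 3.27 and blood endothelial cells 5.86 and 5.13. Rpl36al per 100 UMIs of Rpl36a was 129 and 124 in low-UMI neuronal droplets, 115 and 92.2 in deep neurons, 99.3 and 106 in Malat1-high glia and 31.5 and 31.1 in blood endothelial cells. Rpl7l1 was rare, with 16.8 and 18.5 UMIs per 100 of Rpl7 in Malat1-high glia and 7.69 and 7.95 in Malat1-low glia. Its ratio in deep neurons, 18.4 and 10.6, rested on 27 and 15 UMIs. In the tested UMIs, Rpl39l was counted in 6 of the 15 classes with at most 6 UMIs a library, Rpl3l in 5 with at most 3, all of them in library 2, and Rpl10l in none, which with 3 counts as the floor allows up to 3 UMIs a library.

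**Figure D5:**
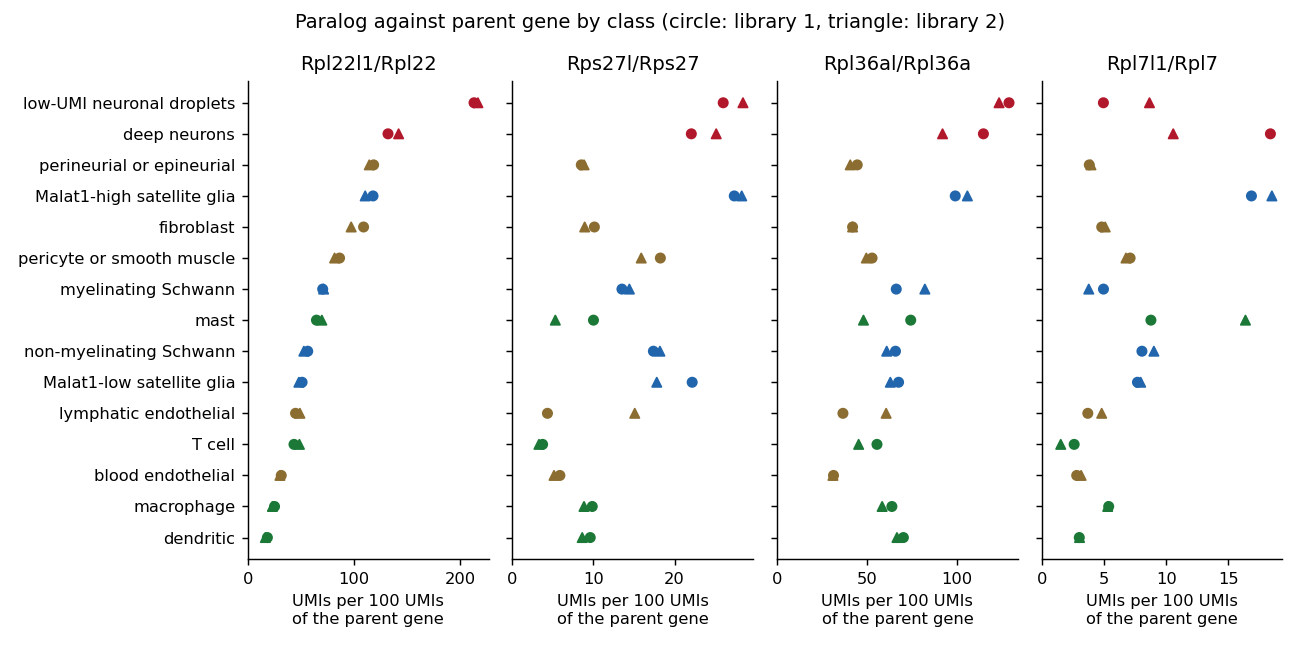
Each panel gives the UMIs of a paralog per 100 UMIs of its parent gene (horizontal axis, from 0) in 15 classes, with a circle for library 1 and a triangle for library 2 and colours as in the plot of shares by class. Neuronal classes lie at the top of the Rpl22l1 panel, at 132 to 217, and macrophages and the dendritic class at the bottom, at 16.6 to 25.2.

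Members were also described by the pyrimidine run found near the annotated start of the gene, with no test. In low-UMI droplets against deep neurons the median log2 fold change was 2.18 for 30 members with a run and 2.17 for 33 tested members without one. For Malat1-high against Malat1-low glia the medians were -1.72 and -1.72, and for immune against stromal classes 0.40 and 0.34. The 20 members without a promoter entry had medians of 2.11, -1.77 and 0.35 in these comparisons. In deep neurons against Malat1-low glia the medians with and without a run were -2.37 and -2.46, in the Schwann comparison -0.022 and -0.011, and in Shox2-rich against Rxfp1-rich neurons -0.42 and -0.37.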

How the data were processed

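UMI counts per gene and droplet were deposited by the authors as raw counts without normalization; per the submitters' processing notes, Cell Ranger 6.1.2 and build mm10 were used. No source used here gives the annotation or says whether intronic reads or strand were counted. Members and lists were chosen with earlier results of these data known. Droplets with at least 500 genes, 1000 UMIs and under 20% mitochondrial UMIs were kept. The droplets in the count tables already had at least 1501 UMIs and at most 9.995% and 9.998% mitochondrial UMIs in libraries 1 and 2. Only 0 and 1 droplets failed these limits, and droplets with fewer UMIs could not be seen. Doublets called by Scrublet in scanpy 1.11.5 were removed (564 and 624), leaving 12030 and 11655. UMIs were split at random, with probability 0.5. One part was clustered (3000 variable genes, 30 components, 15 neighbours, Leiden at resolution 1, and 0.8 for neurons) without members, ribosomal pseudogenes, mitochondrial ribosomal protein genes, Shox2 and Rxfp1. The members were taken out so that they could be tested between the clusters. Clusters were named by marker sets. The other part was summed per class and library and tested in 1 joint fit of 30 sums with edgeR 4.0.16 in R 4.3.3 (quasi-likelihood, TMM, filterByExpr, library as block, Benjamini-Hochberg over all genes tested, threshold 0.05). The fit left 14 residual degrees of freedom per gene and had 429.6 prior degrees of freedom, 235 with the deep neurons divided. The script was tested on simulated data. Levels are CPM of the tested part, and intervals are exact binomial at 95%. Named genes were the 6 highest and 6 lowest members per comparison, all paralogs with their parents, the P-stalk genes, Rpsa and Rps27a, and the extremes of the lists; a few of these are not reported here. The libraries were used as a block because all classes of a library come from 1 suspension. Alternatives were other scalings, DESeq2 1.42.0, no filter, no block, other droplets or clusterings and each library alone.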

Additional observations from a re-analysis of the deposited data

How the results depend on the processing

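The counts of 83 members in low-UMI droplets against deep neurons, in Malat1-high against Malat1-low glia and in deep neurons against Malat1-low glia were the same in every alternative run that gives a test. At resolution 0.6 a class of satellite glia was not found, so the last 2 were not run there. Only their size moved. The median in low-UMI droplets was 1.90 with DESeq2 size factors or its test and 1.27 with all deep subclusters, and the log2 ratio of mean droplet shares was 1.98. In Malat1-high glia the median was -1.56 with DESeq2 size factors or its test, -1.51 with library totals, -1.40 without Malat1 and mitochondrial genes in the totals, -1.89 with all UMIs, -1.79 with doublets kept, -1.88 with members kept in the clustering, -1.78 without a filter, -1.81 with only these classes, and -1.52 to -1.51 in single libraries. Its log2 ratio of shares was -1.41 without Malat1 and mitochondrial genes, -1.58 with doublets kept, -1.46 over droplets and -1.69 with members kept. For deep neurons against glia the median was -1.94 with DESeq2 size factors or its test, -2.53 with all UMIs, -2.12 with totals, -2.60 without a filter, -2.12 without Malat1 and mitochondrial genes, and -2.20 to -2.09 in single libraries. For immune against stromal classes the median was 0.23 without Malat1 and mitochondrial genes, where 3 members were called lower, and 2 were with totals or at resolution 0.6. Without the Malat1-rich fibroblast cluster, an alternative chosen after seeing the data, 66 members were called higher. The Schwann comparison depended on the settings: the median turned to 0.069 with DESeq2 size factors, 0.069 with DESeq2, 0.028 with all UMIs, 0.055 with members kept, 0.079 with totals, 0.065 with only these classes, 1.06 at resolution 0.6, 0.048 without Malat1 and mitochondrial genes, and 0.081 to 0.13 in single libraries, and was -0.31 without the Malat1-rich cluster. Members called higher numbered 11, 16, 3, 10, 12, 19, 81 and 10 in the first 8 of these, 1 without the Malat1-rich cluster and 1 with no replicate block; members called lower numbered 47 without that cluster, 2 with all UMIs and 3 without a filter. The log2 ratio of shares was 0.19 over droplets, 0.16 with members kept and 0.97 at resolution 0.6. In Shox2-rich against Rxfp1-rich neurons the median in single libraries was -0.52 and -0.11, and members called lower were 31 with DESeq2, 29 with all UMIs, 12 with only these classes, 4 with doublets kept, 3 with no replicate block, 2 without Malat1 and mitochondrial genes, and 1 with members kept, totals, no filter or resolution 0.6. With no replicate block the medians were 2.17, -1.73, -2.38, 0.36, -0.016 and -0.41 in the order of the report, and no other count changed by over 1.5 times. The cause of these shifts was not tested. The paralogs Rpl3l, Rpl10l and Rpl39l were too rare in these libraries to be tested.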

Other observations

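The intronless copy of Rps27 on chromosome 9, Rps27rt (chr9:114982366-114982739), was the member that differed most between the libraries. It was higher in library 1 in 15 of 15 classes, with a median log2 ratio of 1.05 over classes. In Malat1-low satellite glia it had 34.9 CPM in library 1 and 17.3 CPM in library 2, in fibroblasts 57.5 and 28.7 CPM, and in macrophages 77.3 and 33.1 CPM. Rps27 itself had 1001 and 1001 CPM in Malat1-low satellite glia. Of 83 members, 81 had a median log2 ratio between the libraries within 0.25 of 0; the exceptions were Rps27rt and Rpl15, the latter at -0.37 and higher in library 1 in 2 of 15 classes. The pseudogene rows, which are not members, were also higher in library 1 over all droplets, with 54.3 against 34.1 CPM. Reads of Rps27rt cannot be told apart with certainty from those of Rps27, so its values are uncertain, and the difference between libraries was not followed further.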
